A study of Mus musculus with 2 samples.

Results

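The SOX transcription factors were examined in primary chondrocytes of newborn mice, for which the sample labels give rib cartilage as the source and the study's methods name rib and articular cartilage. The genes were *Sox9*, *Sox8* and *Sox10* (the SOXE subgroup), *Sox5*, *Sox6* and *Sox13* (SOXD), *Sox4*, *Sox11* and *Sox12* (SOXC) and *Sox18* (SOXF), chosen by symbol, and all 10 were among the 22156 genes of the deposited table. RNA was sequenced from 1 library of *Myl3*-KO cells and 1 library of control cells, all kept as a monolayer in medium with serum. In *Myl3*-KO mice a Cre recombinase driven by the *Col2a1* promoter deletes *Myl3* (*Col2a1-Cre; Myl3 flox/flox*), so deletion depends on cells having used that promoter. Control littermates are described as *Myl3 flox/flox* without Cre in the study's methods and as WT in the sample labels, and both lines were on the C57BL/6J background. How many animals gave the cells of each library is not given in the sources used here. Expected counts, the authors' estimates of how many reads each gene received, added up to 17612434.91 for control and 13477976.98 for *Myl3*-KO. *Myl3* itself had 0 counts in both libraries, so the targeted gene could not check the labels, and directions rest on the deposited column names. With 1 library per genotype, no difference has a replicate check.

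SOX proteins bind the minor groove of DNA through a shared high mobility group (HMG) box and bend it. In cartilage, SOX9 is the factor that commits cells to the chondrocyte lineage and switches on the genes of the cartilage matrix. SOX5 and SOX6 bind beside SOX9 and strengthen its action, although they carry no activation domain of their own. SOXC proteins are known from progenitor cells of many tissues, SOX8 and SOX10 from neural crest and glia, and SOX18 from the endothelium of blood and lymph vessels.

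The kinship of the 10 genes is visible in their coding sequence, and it bears on whether short reads can be told apart. To show this, the coding stretch of 60 bases in *Sox9* with the highest summed identity to the other genes is printed here. For each other gene, the coding stretch that best matches this *Sox9* stretch is given. All were taken without gaps from GENCODE M21 transcripts on GRCm38 and written 5′ to 3′ on the strand of each gene. Capitals mark the 28 bases that are the same in all 10 genes.
Sox9: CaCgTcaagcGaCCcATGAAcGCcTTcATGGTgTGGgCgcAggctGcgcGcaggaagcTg
Sox8: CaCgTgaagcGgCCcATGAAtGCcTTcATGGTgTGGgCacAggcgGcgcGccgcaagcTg
Sox10: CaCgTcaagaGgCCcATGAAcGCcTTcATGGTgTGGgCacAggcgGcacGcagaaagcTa
Sox5: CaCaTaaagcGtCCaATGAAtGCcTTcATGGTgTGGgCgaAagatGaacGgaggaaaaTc
Sox6: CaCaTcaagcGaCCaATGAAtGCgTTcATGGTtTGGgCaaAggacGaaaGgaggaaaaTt
Sox13: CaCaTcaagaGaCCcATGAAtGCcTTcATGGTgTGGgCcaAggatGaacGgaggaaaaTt
Sox4: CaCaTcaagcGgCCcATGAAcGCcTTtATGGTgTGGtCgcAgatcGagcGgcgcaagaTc
Sox11: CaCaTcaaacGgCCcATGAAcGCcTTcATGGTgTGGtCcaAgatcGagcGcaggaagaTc
Sox12: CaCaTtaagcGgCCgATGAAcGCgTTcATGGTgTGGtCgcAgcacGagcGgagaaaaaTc
Sox18: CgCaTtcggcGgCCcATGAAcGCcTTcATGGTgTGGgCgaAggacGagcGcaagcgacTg

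Each stretch lies within 1 coding exon. In *Sox9* it is chr11:112782894-112782953 on the plus strand, in *Sox5* chr6:143841223-143841282 and in *Sox4* chr13:28952791-28952850, both on the minus strand. Genes of the same subgroup were identical at 81.7% to 88.3% of these bases over 9 pairs, and genes of different subgroups at 70% to 80% over 36 pairs. *Sox9* matched *Sox8* and *Sox10* at 88.3% of the bases, but *Sox5* at 76.7% and *Sox12* at 75%.

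Few longer words were shared among the 10 genes. Of the 4105 words of 31 bases in the *Sox9* transcript, 25 (0.609%) also occur in another of the 10 genes, all of them in *Sox10*, which had 0 counts. In *Sox4* the share was 0.441%, with 18 words shared with *Sox11* and 3 with *Sox12*, and in *Sox5*, *Sox6*, *Sox8*, *Sox13* and *Sox18* it was 0%. Overlap with noncoding RNAs was wider. The lincRNA gene *Gm26735* runs opposite to *Sox4* and shares 2586 of its 4765 words, and *Sox5os1*, opposite to *Sox5*, shares 1303 of 14440. Neither is a row of the table. The sources used here do not say whether strand was used in counting. Whether reads from the part that *Sox4* and *Gm26735* share were told apart is therefore not known. *Sox9* overlaps 0 annotated genes.

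Levels are given as CPM, the count of a gene scaled to a common library total. Ratios compare *Myl3*-KO with control on the log2 scale, so that values below 0 are lower in *Myl3*-KO, and any count below 3 was set to 3. Its 95% Clopper-Pearson interval covers counting error only, not the spread between animals or cultures. A gene is called higher or lower where this interval excludes 0, which compares the reads of these libraries and not the genotypes. Of the 10 SOX genes, 7 had at least 10 counts over both libraries and were tested. *Sox9* was lower and *Sox4* was higher in the *Myl3*-KO library, and the other 5 were not resolved. Over all 12431 genes tested, the interval excluded 0 for 42.4%, and for 58.6% of the 6385 genes with at least 1000 counts. Of the 7, 0 reached a log2 ratio of 1 in size, against 3.35% of all genes tested (2.16% higher and 1.19% lower). The median log2 ratio of the 7 was -0.09, beside 0.02 over all genes tested.

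*Sox9* (ENSMUSG00000000567) is the gene at chr11:112782224-112787760. It was read 866 times in control and 480 times in *Myl3*-KO cells, which is 49.2 CPM against 35.6 CPM. The counting intervals of the levels, 45.9 to 52.6 CPM and 32.5 to 38.9 CPM, did not overlap. The log2 ratio was -0.47 (95% interval -0.63 to -0.30), so the level in *Myl3*-KO was 0.724 of that in the control. Among the genes with at least 1000 counts, 0.987% had a lower ratio than *Sox9*, which had 1346 counts over both libraries. Among all genes tested, many of them with fewer counts, the share was 4.19%. In bulk RNA, fewer cells that express the gene and less RNA per cell cannot be told apart.

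The other SOXE genes were at or near 0. *Sox8* (chr17:25565892-25570686) had 1 read in control cells and 0 in *Myl3*-KO cells, and *Sox10* (chr15:79154908-79165240) had 0 in both. A count of 0 allows a level of up to 0.170 CPM for control cells and 0.223 CPM for *Myl3*-KO cells, taking 3 counts as the floor, which is a one-sided limit and lies below the upper end of a two-sided interval (0.209 CPM and 0.274 CPM). *Sox9* was thus the SOXE gene detected in these cells, and *Sox8* and *Sox10* are given no ratio.

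**Figure D1:**
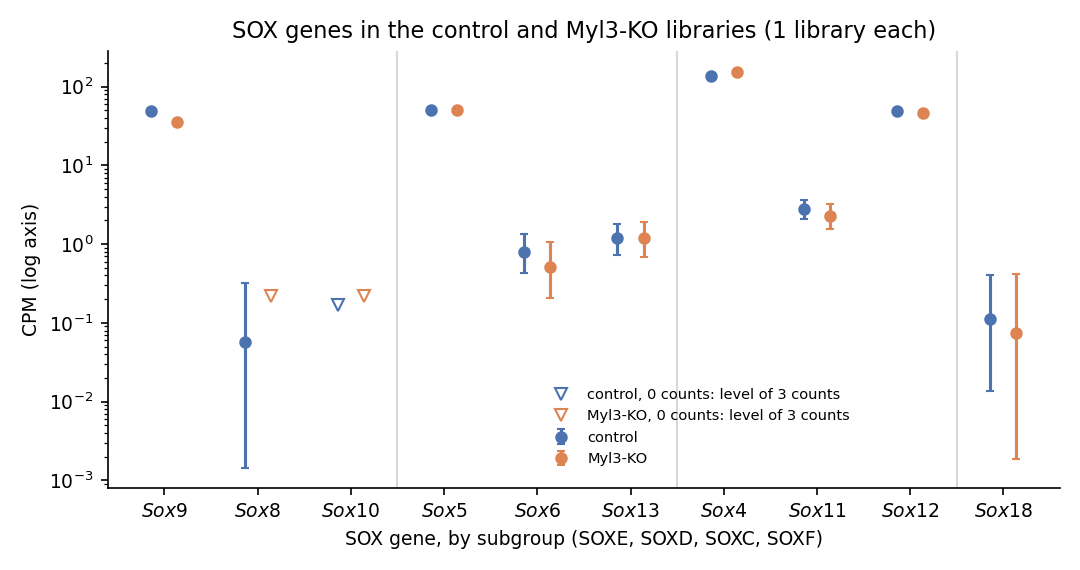
Level of each SOX gene in CPM on a log axis, in the control library (blue) and the *Myl3*-KO library (orange), with 95% Poisson intervals of the count, which are smaller than the points for the 4 highest genes. Open triangles mark genes with 0 counts, drawn at the level of 3 counts. *Sox4*, *Sox5*, *Sox9* and *Sox12* lie above 30 CPM in both libraries. On the log axis the widest gap among these 4 is that of *Sox9*, at 49.2 and 35.6 CPM.

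Among the SOXD genes, the partners of SOX9 differed widely in level. *Sox5* (ENSMUSG00000041540, chr6:143828425-144781977) was read 893 times in control and 684 times in *Myl3*-KO cells, or 50.7 CPM in each library. Its log2 ratio was 0.00, with an interval of -0.14 to 0.15, which is a change of -9.53% to 10.7% in level. *Sox6* (chr7:115470872-116038796) was close to the floor, with 14 reads in control and 7 in *Myl3*-KO cells. Its log2 ratio of -0.61 had an interval of -2.16 to 0.79, so no difference was detectable at this depth. *Sox13* (chr1:133382303-133424377), whose product is a close relative of SOX5 and SOX6, had 21 and 16 counts. The log2 ratio of *Sox13* was -0.01, and its interval ran from a change of -51.4% to one of 100.2% in level. *Sox5* therefore supplied nearly all SOXD reads, 893 of 928 in the control and 684 of 707 in *Myl3*-KO.

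The SOXC genes held the highest level of the family. *Sox4* (ENSMUSG00000076431, chr13:28948919-28953713) was read 2432 times in control and 2061 times in *Myl3*-KO cells, or at 138 CPM and 153 CPM. The *Myl3*-KO library was higher, with a log2 ratio of 0.15 (interval 0.06 to 0.23), a level 1.11 times that of the control, in reads that could include those of *Gm26735*. Of the genes with at least 1000 counts, 77.6% had a lower ratio than *Sox4*, and of all genes tested 68.8%. *Sox12* (chr2:152393611-152398063) had 870 and 626 counts, and its log2 ratio of -0.09 had an interval of -0.24 to 0.06. *Sox11* (chr12:27334264-27342574) had 49 and 31 counts, and its log2 ratio of -0.27 was not resolved (interval -0.97 to 0.40). *Sox12* and *Sox11* thus had ratios below 0 and *Sox4* one above 0, and only that of *Sox4* was resolved from 0.

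*Sox18* (chr2:181669836-181671640), the SOXF gene, had 2 reads in control and 1 in *Myl3*-KO cells. Both are under the floor and no ratio is given.

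Summed by subgroup, the SOXE counts went from 867 to 480, a log2 ratio of -0.47 (interval -0.63 to -0.30) that is the ratio of *Sox9*. The SOXD sum of 928 and 707 counts gave a log2 ratio of -0.01 (interval -0.15 to 0.14). The SOXC sum of 3351 and 2718 counts gave 0.08 (interval 0.01 to 0.16), and this interval reached below 0 when the libraries were scaled by TMM factors (-0.02 to 0.13) or DESeq2 size factors (-0.01 to 0.13).

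**Figure D2:**
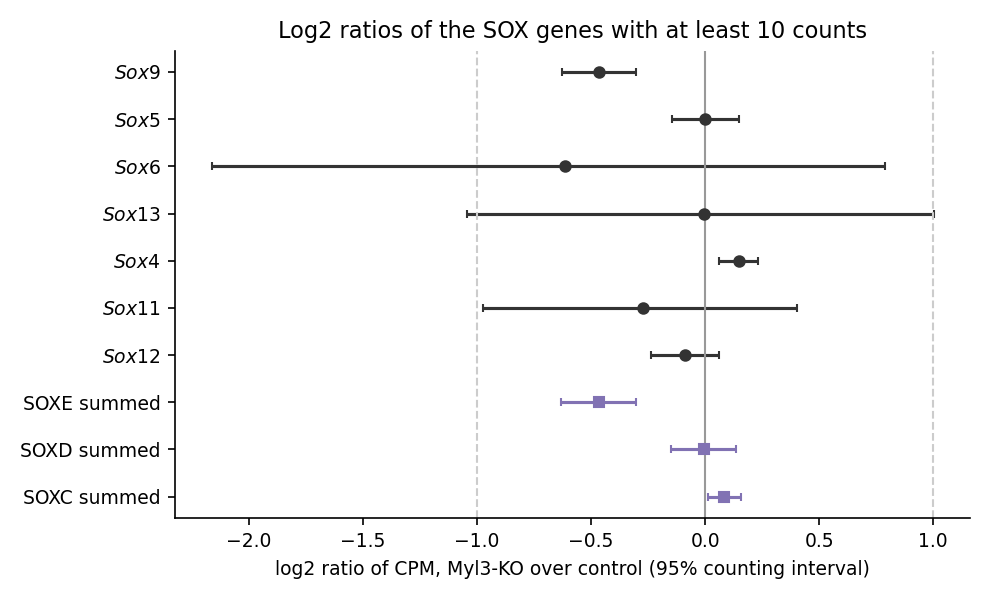
Log2 ratio of CPM, *Myl3*-KO over control, for the 7 SOX genes with at least 10 counts (circles) and for the summed counts of each subgroup (squares), with 95% counting intervals and dashed lines at a log2 ratio of -1 and 1. *Sox9* at -0.47 lies below 0 with its whole interval, *Sox4* at 0.15 lies above it, and the wide bars of *Sox6*, *Sox13* and *Sox11* reflect counts of 49 or fewer.

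Because all genes of a library share its scaling, *Sox9* was also set against its relatives within each library, which needs no scaling. The ratio of *Sox9* to *Sox5* counts was 0.970 in the control and 0.702 in *Myl3*-KO. The ratio of these ratios was 0.724, with a 95% interval of 0.621 to 0.843. Against *Sox12* it was 0.770 (0.660 to 0.899), and against *Sox4* 0.654 (0.575 to 0.743). *Sox9* was thus lower relative to each of the 3 other well-counted members. All these ratios use the same *Sox9* counts and are not separate checks. Against the weakly counted *Sox6* (1.11, interval 0.415 to 3.27), *Sox13* (0.728, interval 0.358 to 1.51) and *Sox11* (0.876, interval 0.539 to 1.44) the intervals include 1.

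Levels of different genes can be compared only per length, for which the deposited FPKM values were used. These divide the reads by gene length and by sequencing depth. In the control library the order was *Sox4* (28.8 FPKM), *Sox9* (11.89), *Sox12* (11.09), *Sox5* (7.31), *Sox13* (0.43), *Sox11* (0.33) and *Sox6* (0.14). The counting intervals of *Sox9* and *Sox12* overlapped there, as did those of *Sox13* and *Sox11*. In *Myl3*-KO the order was *Sox4* (31.89 FPKM), *Sox12* (10.43), *Sox9* (8.61), *Sox5* (7.57), *Sox13* (0.38), *Sox11* (0.28) and *Sox6* (0.08). *Sox9* stood below *Sox12* without overlap in this library, and its interval of 7.86 to 9.42 FPKM overlapped that of *Sox5* (7.01 to 8.16 FPKM). Of the summed FPKM of the 10 genes, 60.12 in the control and 59.29 in *Myl3*-KO, *Sox9* made up 19.8% and 14.5%. *Sox4* made up 47.9% and 53.8%.

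**Figure D3:**
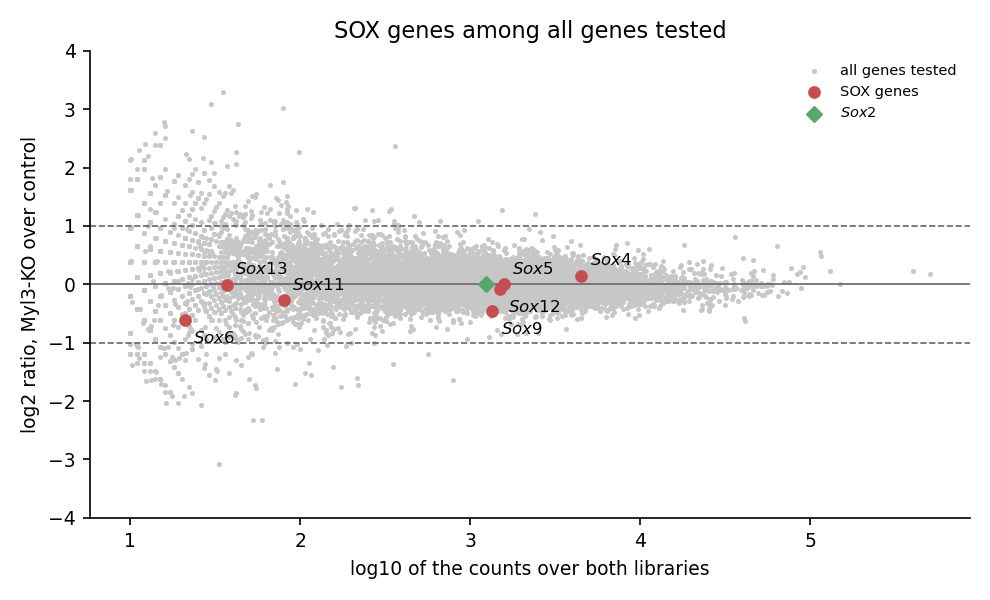
Log2 ratio of *Myl3*-KO over control against the log10 of the counts over both libraries, for all 12431 genes tested (grey; 1 gene lies beyond the axis), the 7 SOX genes tested (red) and *Sox2* (green). *Sox9* lies at the lower edge of the cloud of genes with like counts, while *Sox5*, *Sox12* and *Sox2* lie near 0.

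The table holds 10 further SOX genes. Of these, 6 had 0 counts in both libraries (*Sox1*, *Sox3*, *Sox14*, *Sox17*, *Sox30* and *Sry*), and *Sox7* and *Sox15* had at most 1 count per library. *Sox2* (chr3:34650405-34652461), a SOXB factor known from stem cells and the nervous system, was read 696 times in control and 537 times in *Myl3*-KO cells. At 19.21 and 19.37 FPKM it stood between *Sox4* and *Sox9* in the control, and its log2 ratio of 0.01 had an interval of -0.15 to 0.18. The *Sox2* gene lies within the noncoding gene *Sox2ot*, which runs on the same strand and was not analysed here. *Sox21*, also of SOXB, had 11 counts in each library.

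Genes that SOX9 is known to act on, together with other genes of the cartilage matrix, were at low levels. Of 22 such genes, 21 were in the table and 6 had at least 10 counts. Of those 6, 1 was higher, 0 were lower and 5 were not resolved, while over all genes tested 22.2% were higher and 20.1% lower. The median log2 ratio of the 6 was 0.17, beside 0.02 over all genes tested. The one called higher was *Col11a2*, which encodes a chain of collagen XI and is a direct SOX9 target. It was read 293 times in control and 395 times in *Myl3*-KO cells, and its log2 ratio was 0.82 (interval 0.60 to 1.04), opposite in direction to *Sox9*. Neither *Col11a1*, which encodes another collagen XI chain, nor the growth factor receptor gene *Fgfr3* was resolved. *Col11a1* had 121 and 99 counts (log2 ratio 0.10, interval -0.30 to 0.49), and *Fgfr3* had 109 and 80 counts (log2 ratio -0.06, interval -0.50 to 0.37). *Col2a1*, the main collagen gene of cartilage and the source of the Cre promoter, was read 30 times in control and 27 times in *Myl3*-KO cells (log2 ratio 0.23, interval -0.57 to 1.03).

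The defining markers of the labelled cell type were mostly absent. *Acan*, *Matn1* and *Hapln1* had 0 counts in both libraries, *Col9a1* had 0 and 1, and *Comp* had 1 and 2. *Sox9* and *Sox5* were thus read at 866 and 893 counts in a control library without detectable *Acan*, the aggrecan gene that both factors are known to drive.

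A list of 24 SOX9 cofactors and other regulators of cartilage and mesenchyme had 20 genes tested. Of these, 14 were higher, 1 was lower and 5 were not resolved, and 0 reached a log2 ratio of 1 in size. Over all genes tested 22.2% were higher and 20.1% lower, and 58.6% of genes with at least 1000 counts were called in either direction. The median log2 ratio of the list was 0.20. The most abundant were *Ctnnb1*, which encodes β-catenin, at 17922 and 14016 counts (log2 ratio 0.03, interval -0.00 to 0.06), *Trps1*, which encodes a GATA-type repressor of chondrocyte maturation, at 3969 and 3624 counts (0.25, interval 0.19 to 0.32), and *Tead2*, a TEAD factor gene known as a SOXC target, at 3342 and 3181 counts (0.31, interval 0.24 to 0.39). The 1 gene called lower, named after its value was seen, was *Runx3*, a RUNX factor gene of chondrocyte maturation, with 229 and 131 counts and a log2 ratio of -0.42 (interval -0.74 to -0.10).

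**Figure D4:**
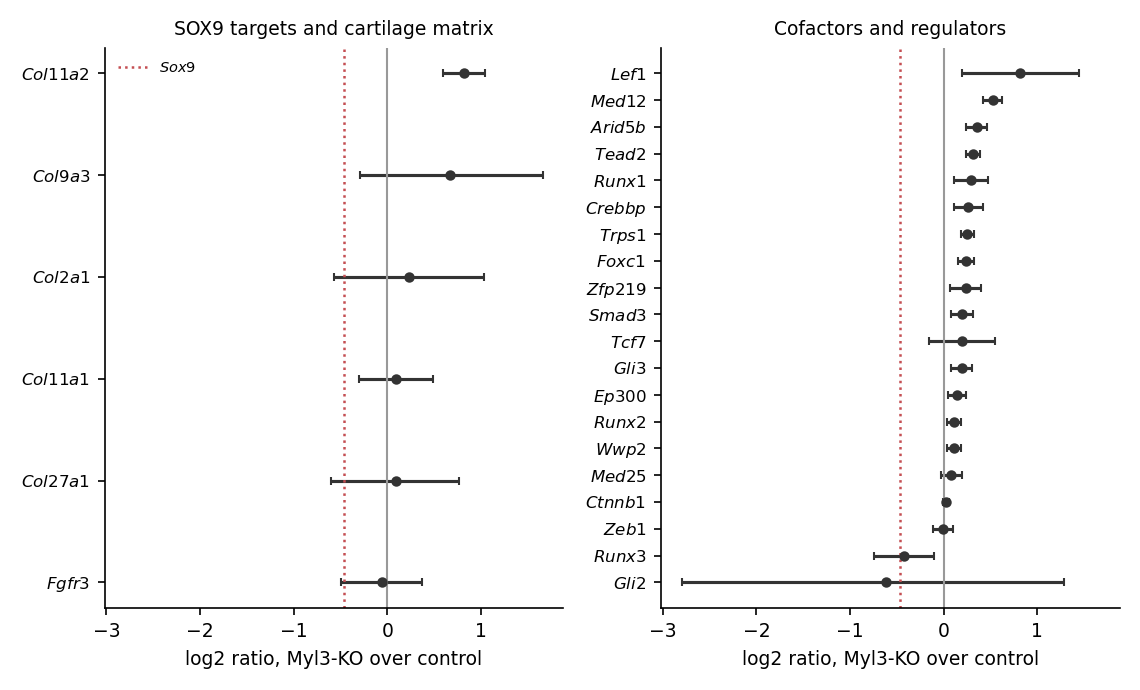
Log2 ratio of *Myl3*-KO over control with 95% counting intervals for genes with at least 10 counts, among SOX9 targets and cartilage matrix genes (left) and SOX9 cofactors and cartilage regulators (right). The dotted line marks *Sox9* at -0.47, and *Col11a2* at 0.82 and most regulators lie to the right of 0.

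Markers of other cell types were read beside the SOX genes they are known with. For *Sox10* and *Sox8*, 15 Schwann cell and neural crest markers summed to 13.7 CPM and 14.3 CPM (control and *Myl3*-KO), and *Ngfr*, *Foxd3*, *Tyr* and *Dct* had 0 counts in both. *Mitf*, a regulator gene of pigment cells, had 129 and 82 counts (log2 ratio -0.27, interval -0.69 to 0.14). For *Sox18*, 12 endothelial markers summed to 3.29 CPM and 4.23 CPM, with *Cdh5*, *Tie1*, *Erg*, *Cldn5*, *Emcn*, *Lyve1* and *Prox1* at 0 in both. The 3 endothelial genes tested were *Vwf* (22 and 29 counts), *Flt1* (29 and 16) and *Pecam1* (5 and 5). Of these 3, 0 were called, against 42.4% of all genes tested. With at most 29 counts per library they could show large differences only. The 8 muscle markers summed to 0.284 CPM and 0.148 CPM, and the 6 immune markers to 2.22 CPM and 2.45 CPM.

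Fibroblast markers were abundant and moved in both directions. The 11 genes summed to 17119 CPM and 19568 CPM, and of these *Col1a2* had 211652 and 189213 counts (log2 ratio 0.22). Of the 10 tested, 5 were higher and 3 lower, beside 22.2% and 20.1% of all genes tested, and 58.6% called in either direction among genes with at least 1000 counts. *Thy1* had 0 counts in both. The largest rises, named after their values were seen, were those of the growth factor receptor genes *Pdgfrb*, with 3689 and 4617 counts (0.71, interval 0.65 to 0.77), and *Pdgfra*, with 120 and 140 counts (0.61, interval 0.25 to 0.97). Both genes past a log2 ratio of 1 in size, as were 1.19% of all genes tested in this direction, were lower, namely *Dcn*, which encodes decorin, with 631 and 155 counts (-1.64, interval -1.90 to -1.38), and *Lum*, which encodes lumican, with 272 and 81 counts (-1.36, a level of 0.389 times the control). The third gene called lower, named after its value was seen, was *Postn* (-0.08, interval -0.12 to -0.03). These moved in the same libraries as *Sox9*, and their part in the *Sox9* result was not tested. Genotype and any other way in which the cultures differed cannot be told apart.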

How the data were processed

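Primary chondrocytes of 1 control and 1 *Myl3*-KO preparation were sequenced. The authors deposited 1 table with an expected count, an estimate of reads per gene without normalization, and an FPKM value rounded to 2 decimals for each library. The study's methods describe mRNA enrichment on beads with random-primed cDNA, and the labels name a SMARTER kit. The submitters' processing notes name the builds GRCm38 and mm10, and the aligner, counter and strand setting are not given in the sources used here. The control column is headed NC and was read as control because the other is headed KO. Expected counts were rounded for the intervals and used unrounded for ratios. The tests of edgeR and DESeq2 were not run because 1 library per genotype leaves no residual degrees of freedom, so no p-value is given. Named genes are the 10 members and genes from the lists. List genes were drawn from those past a log2 ratio of 1 in size, the 3 with most counts and the defining markers. Not all genes that meet this rule are named, and genes named after their values were seen are marked so. No genes were named for a like pattern, as 2 libraries give 1 ratio per gene. The members and lists were chosen with earlier results of these data known. A result for 1 marker gene is left out here. Positions, transcripts and overlaps came from GENCODE M21 on GRCm38. Libraries were also scaled with TMM and with DESeq2 size factors. Further alternatives were no filter or at least 10 counts in each library, 1 added count, the FPKM ratio, a limit of 0.5 or 2 and a 99% interval. Python 3.11.15, numpy 2.4.6, pandas 2.3.3, scipy 1.17.1, matplotlib 3.10.9, R 4.3.3, edgeR 4.0.16 and DESeq2 1.42.0 were used.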

Additional observations from a re-analysis of the deposited data

How the results depend on the processing

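The log2 ratio of *Sox9* lay between -0.49 and -0.46 over 6 alternatives, and that of *Sox4* between 0.12 and 0.15. Among these alternatives, the filters on low counts could not move these ratios. With 1 added count or the FPKM ratio they could hardly move either, so the narrow ranges say little beyond the scalings. *Sox9* and *Sox4* kept intervals off 0 under both scalings and at 99%. Scaling by TMM factors lowered every log2 ratio by the same amount (-0.03) and DESeq2 size factors did so by nearly as much (-0.02). Under them the SOXC sum gave 0.06 in each case (0.05693 with TMM and 0.06006 with DESeq2), and the interval, moved down with the ratio, then included 0. Over all genes tested, 22.2% were higher and 20.1% lower with library totals, and 19.3% and 23.3% with TMM factors, while the counts of the gene lists in each direction did not change under either scaling. A limit of 0.5 on the log2 ratio was passed by 1 SOX gene, the weakly counted *Sox6*, against 11.7% of all genes tested. Counts of 49 or fewer limit *Sox6*, *Sox11* and *Sox13*, and the FPKM ratio moved *Sox6* to -0.81 and *Sox13* to -0.18. No paired analysis was possible because each genotype has 1 library.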

Other observations

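The deposited FPKM values imply a length for each gene, since they equal the count divided by the library total and a length. For *Sox9* this was 4135 bases in control and 4136 bases in *Myl3*-KO cells, beside an annotated transcript of 4135 bases, and for *Sox4* 4795 bases in each, beside 4795. For *Sox12* it was 4454 and 4453 bases, the longer of its 2 coding transcripts (4453 against 4169). *Sox5*, with 7 coding transcripts of 614 to 7243 bases among 14 annotated, was the exception among the well-counted members. Its implied length was 6936 bases in control and 6704 bases in *Myl3*-KO cells, a difference of -3.35%, while rounding of the FPKM allows 0.0684% and 0.0661%. The FPKM ratio of *Sox5* was 0.05 on the log2 scale, above the 0.00 of its counts. The counts by transcript were not analysed here, so how the long and short forms of *Sox5*, of which the long form is the one known from cartilage, shared these reads was not tested.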
